A study of Mus musculus with 24 samples.

Results

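The genes described here are 10 regulators of the skeletal lineages: the Runx factors Runx1, Runx2 and Runx3 with their shared partner Cbfb, the Sox factors Sox9, Sox5 and Sox6, and the osteoblast and limb homeobox or zinc-finger factors Sp7, Msx1 and Msx2. They were chosen by name, not by any measured value, and all 10 were found among the 22254 protein-coding genes of the mm9 annotation. Each gene was read as its body with 10 kb on each side, called its window, in every peak list. The data were 17 ChIP-seq peak lists from 3 kinds of cultured mouse fibroblasts, taken from a series of 24 samples whose 7 inputs were not used here.

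Mouse embryonic fibroblasts (MEF, strain C57BL/6) came from embryos at E10 to E13, wound-healing fibroblasts (C57BL/6, below wound fibroblasts) from the dorsal wound at day 10, and MMTV-CAF (FVB/NJ, cancer-associated fibroblasts, below CAF) from the tumours of MMTV-PyMT mice, which carry an oncogene driven in the mammary gland. Every culture, controls too, carried E6 and E7 of a papillomavirus, used to immortalise it. Wild-type (WT) cells were compared with cells in which Prrx1 had been deleted by CRISPR/Cas9 with a guide RNA (SG), for which the control in the protocol was the SgNS guide. MEF also had a KI genotype, read here as the Prrx1 mutant with lacZ placed in the homeodomain. The growth protocol in the labels calls this mutant 129S-Prrx1tm1Jfm/Mmmh. It had been backcrossed to the C57BL/6 background, which the labels give for all MEF. MEF KI and MEF SG were both compared with 1 MEF WT list. There were 7 lists of histone H3 acetylated at lysine 27 (H3K27ac, a mark of active promoters and enhancers), 7 of H3 trimethylated at lysine 4 (H3K4me3, a mark of promoters), and 3 of Prrx1 in WT cells. Every group had 1 library and so no replicates, no test was possible, and each difference below is between single lists. In cultures of many cells, fewer cells carrying a mark and less of the mark per cell cannot be told apart.

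Runx factors bind DNA as a pair with Cbfb. Runx2 and, downstream of it, the zinc-finger factor Sp7 (osterix) are required for osteoblasts, while Sox9 is required for chondrocytes and acts with Sox5 and Sox6 on cartilage matrix genes such as Col2a1 and Acan. Runx1 is best known from blood and Runx3 from T cells and sensory neurons, and both are also used in cartilage and bone. Msx1 and Msx2 are homeobox factors of the limb bud and the skull. Prrx1 is itself a homeobox factor of limb and craniofacial mesenchyme, the source of many of these lineages. Runx1, Runx2 and Runx3 each have a distal promoter (P1) and a proximal promoter (P2), which give proteins that differ at the N terminus.

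The sequences the Prrx1 results turn on are shown as the Prrx1 summit with 50 bases on each side, from mm9, plus strand, 5′ to 3′. Capitals mark TAATTA, the palindromic core bound by many paired-related homeodomains, which reads the same on both strands. The Runx1 window (CAF) lies 2.65 kb upstream of the distal promoter, the Runx2 window (wound) at the start of Supt3h inside Runx2, the Sox5 windows (MEF) in introns, and the Aaas window (CAF) at the start of the neighbour of Sp7.
Runx1 upstream, chr16:92828907-92829007: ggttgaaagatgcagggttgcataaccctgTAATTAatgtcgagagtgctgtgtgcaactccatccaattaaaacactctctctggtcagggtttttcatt
Runx2 at Supt3h, chr17:44914794-44914894: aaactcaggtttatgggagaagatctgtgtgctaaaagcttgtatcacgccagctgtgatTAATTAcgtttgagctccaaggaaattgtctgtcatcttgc
Sox5 intron with H3K27ac in all 7 lists, chr6:144023477-144023577: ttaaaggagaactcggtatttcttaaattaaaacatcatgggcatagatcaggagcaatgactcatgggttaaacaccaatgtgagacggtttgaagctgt
Sox5 intron without H3K27ac, chr6:144059848-144059948: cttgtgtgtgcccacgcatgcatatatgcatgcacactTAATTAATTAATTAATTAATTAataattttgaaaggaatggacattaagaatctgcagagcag
Aaas start, chr15:102181372-102181472: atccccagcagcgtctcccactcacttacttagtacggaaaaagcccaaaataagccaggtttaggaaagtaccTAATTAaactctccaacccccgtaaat

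These windows were picked for their place and score. Of all 23 Prrx1 summits at members, 11 had TAATTA within 100 bp, 2 of 3 in MEF, 4 of 11 in CAF and 5 of 9 in wound fibroblasts. The Sox5 window without H3K27ac holds it 5 times, in overlapping copies of a repeat. The Sox5 window with H3K27ac in all 7 lists holds none. As background, TAATTA lay within 100 bp of 69.1% of all Prrx1 summits in MEF, 35.5% in CAF and 41.9% in wound fibroblasts. A match of letters is a description and not evidence that the protein touches them.

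The Runx promoters are shown as the 250 bases before the start (RefSeq, GRCm38.p6, gene strand), because the H3K4me3 regions separated them. Capitals mark ACCACA, the reverse complement of TGTGGT, a core word bound by Runx factors, searched on both strands.
Runx1 proximal: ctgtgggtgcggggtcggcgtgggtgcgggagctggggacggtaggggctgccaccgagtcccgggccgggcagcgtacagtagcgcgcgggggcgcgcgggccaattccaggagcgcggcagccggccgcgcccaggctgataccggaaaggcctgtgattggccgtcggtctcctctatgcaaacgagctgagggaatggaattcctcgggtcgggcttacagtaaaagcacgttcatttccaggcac
Runx1 distal: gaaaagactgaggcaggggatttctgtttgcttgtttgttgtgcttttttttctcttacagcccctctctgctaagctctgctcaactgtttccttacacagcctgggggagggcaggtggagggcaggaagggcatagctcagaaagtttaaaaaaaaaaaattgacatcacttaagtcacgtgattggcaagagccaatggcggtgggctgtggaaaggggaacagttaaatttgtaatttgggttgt
Runx2 distal: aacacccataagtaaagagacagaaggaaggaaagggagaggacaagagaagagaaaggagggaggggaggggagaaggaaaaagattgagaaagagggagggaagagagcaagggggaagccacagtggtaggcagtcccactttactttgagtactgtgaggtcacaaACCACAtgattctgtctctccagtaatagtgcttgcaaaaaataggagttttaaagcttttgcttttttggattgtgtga

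Among these 3, the word was found once, in the Runx2 distal promoter. In the full 300-base windows, which reach 50 bases past the start, it was found 0 times in the Runx1 proximal, 2 times in the Runx1 distal and 3 times in the Runx2 distal promoter, and 16.8% of all 32851 RefSeq promoters held it at least once. All 15 RefSeq promoters listed for the members matched mm9 exactly at 1 position each, which allowed the peak lists to be read at them. The Runx1 proximal promoter (69.0% G or C) lay under an H3K4me3 region in 7 of 7 lists. The Runx1 distal promoter (45.0% G or C) lay under one in 2 lists, and the Runx2 distal promoter (45.3%) in 3. GC content and coverage did not always go together: the first Runx3 promoter and a Sox6 promoter held 63.7% and 63.3% G or C and lay under a region in 0 lists.

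The lists differed in size and strength. H3K27ac lists held 29325 (MEF KI) to 61603 (CAF SG) summits, H3K4me3 lists 13125 (MEF KI) to 29166 (CAF SG) regions, and the Prrx1 lists 3048 (MEF), 8000 (CAF) and 5698 (wound) summits. H3K27ac summits were weakest in MEF KI, with a median −log10 p of 11.9 against 15.2 to 21.2 elsewhere. The targeted gene Prrx1 kept an H3K4me3 region (4558 to 15484 bp) and 12 to 27 H3K27ac summits in every list, deleted ones included. Histone marks at the locus do not show whether the deletion worked. Of 10 fibroblast markers, 8 to 10 had an H3K27ac summit in each list. Of 6 osteoblast markers 1 or 2 had a summit, with Phex at 1 to 17 summits and Ibsp, Bglap and Bglap2 at 0 in all 7 lists. Of 6 chondrocyte markers 0 or 1 had a summit, with Acan and Matn1 at 0 throughout. Comp had 3 summits in MEF SG and 2 in CAF WT, and Col2a1 had 1 in CAF SG. Summed scores went from 7.57 (wound WT) to 338 (CAF SG) for the osteoblast and from 0 to 36.1 for the chondrocyte markers. Markers of other cells also had summits: 2 to 4 of 7 epithelial, 1 to 3 of 4 endothelial and 1 to 3 of 6 blood genes, with Ptprc at 0 and Cd68 with 3 to 8 summits in every list. The summed scores of these lists went from 15.9 to 278 for epithelial, 63.0 to 286 for endothelial and 53.7 to 318 for blood genes, lowest in MEF KI each time, and their part in the results below was not tested.

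H3K4me3 at the promoters differed widely between the members. Runx1 and Runx2 carried some of the widest regions in the genome, Cbfb and Sox9 wide ones, Sox5, Runx3, Msx1 and Msx2 narrow or changing ones, and Sox6 and Sp7 none over an annotated transcription start site (TSS) in any list. The value used is the width of the widest region over a TSS, with the authors' fold enrichment over input.

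Runx1, the founding member of its family in blood, lies on the minus strand of chr16:92601712-92826311. Its region spanned 7138 bp in MEF WT, 5723 in KI, 7066 in MEF SG, 6673 and 8617 in CAF (WT, SG), and 5804 and 6557 in wound WT and SG. It was widest in CAF SG and narrowest in MEF KI, and its width stood at the 96.8th to 99.8th percentile of all genes. Runx2, the osteoblast regulator (minus strand, chr17:44632936-44951746), spanned 6045, 5334, 5481, 6910, 7102, 5403 and 6940 bp in the same order, at the 97.2nd to 99.7th percentile. Its fold enrichment was lowest in MEF KI (3.88) and highest in CAF WT (14.3). Runx1 and Runx2 were therefore wide in every list, whatever the fibroblast type or genotype.

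Runx3 (plus strand, chr4:134676567-134733905) was the weak member of the family. Its region measured 2398, 1643 and 2552 bp in the MEF lists, was missing in CAF WT, and measured 1110 bp in CAF SG, 2001 bp in wound WT and 733 bp in wound SG. Cbfb, the partner that the Runx proteins share (plus strand, chr8:107694574-107741886), had a region of 3236 to 4487 bp in 6 lists and none over its TSS in MEF KI. In MEF KI a region of 2335 bp with a fold of 3.48 began 151 bp downstream of that TSS and a piece of 273 bp ended 355 bp upstream, against a single region of 4286 bp with a fold of 4.66 in MEF WT.

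Sox9, the chondrocyte regulator (plus strand, chr11:112643538-112649074), had a region in all 7 lists, of 3063, 2309 and 2814 bp in MEF, 4988 and 4789 bp in CAF and 3438 and 3332 bp in wound fibroblasts. Both CAF lists were above the other 5 in width, but regions over the TSSs of all genes were also wider in CAF. Their median was 3038 bp in CAF WT and 2860 bp in SG, against 1836.5 to 2368 bp in the other lists. By percentile of width CAF WT (91.5) and wound WT (91.9) were close. Sox5 (minus strand, chr6:143776945-144730497), a partner of Sox9, was narrow at 1538, 617 and 943 bp in MEF, and reached 1838 and 3952 bp in CAF and 1925 and 2623 bp in wound fibroblasts. Sox6 (minus strand, chr7:122614858-123182258), the third of the cartilage trio, had no region over any of its 5 annotated TSSs. Short regions of 404 to 842 bp ended 923 bp or more upstream of its first TSS in MEF KI and in all CAF and wound lists, and another lay over the start of 1110006G14Rik in MEF KI and both wound lists. MEF WT and SG had no region in the Sox6 window.

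Sp7, the osteoblast factor downstream of Runx2 (minus strand, chr15:102187040-102197285), had no region over its TSSs, and each list marked the start of its neighbour Aaas instead (1527 to 2715 bp). Msx1 (minus strand, chr5:38211724-38215822) had 1500 bp in MEF WT, 2655 and 3061 bp in CAF and 2412 and 2332 bp in wound fibroblasts, and none over its TSS in MEF KI and MEF SG. Regions of 1470 bp (KI) and 1371 bp (SG) began 94 and 35 bp inside the gene, again next to the TSS without touching it. Msx2 (minus strand, chr13:53562250-53568443) had a region over its annotated TSS in CAF WT (1766 bp) and wound WT (2435 bp) alone. In wound SG a wider region of 3234 bp began 155 bp past the Msx2 TSS, whereas in CAF SG none lay within 1 kb of it. In MEF, regions of 613 bp (KI) and 475 bp (SG) began 366 and 271 bp past it, and WT had none.

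**Figure D1:**
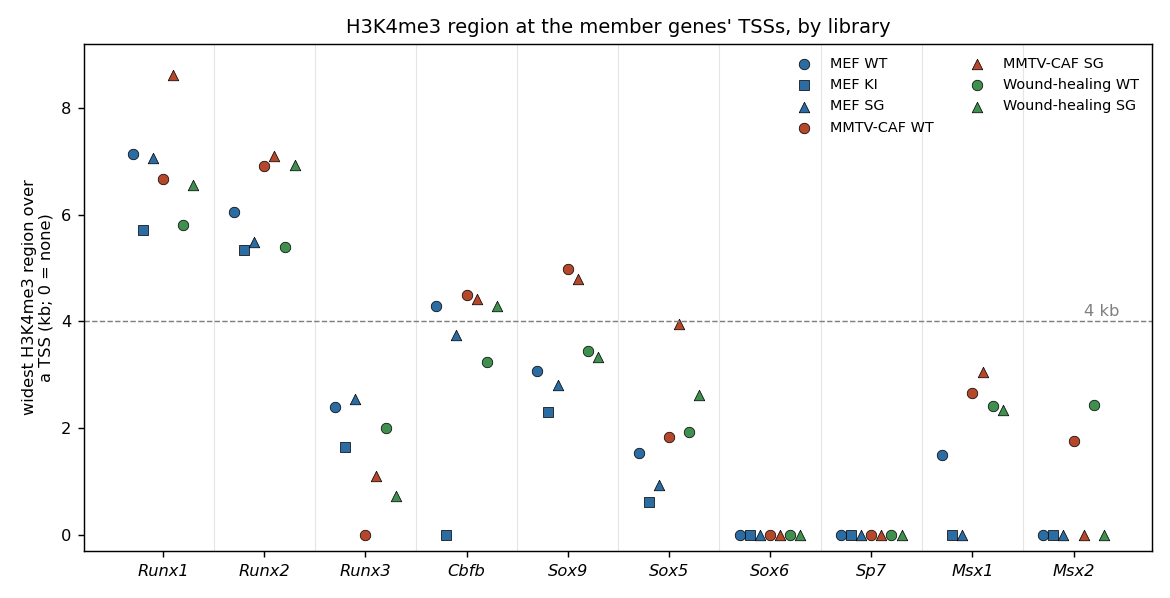
Width in kb of the widest H3K4me3 region over a TSS of each gene, 1 point per list (colour for the fibroblast type, circle for WT, square for KI, triangle for SG). Runx1 and Runx2 stayed above the dashed 4 kb line in all 7 lists, whereas Sox6 and Sp7 stayed at 0.

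Counted together, 7, 5 and 6 members had a TSS region in MEF WT, KI and SG, 7 in each CAF list, and 8 and 7 in wound WT and SG. Among all genes this share was 41.5% to 55.3%. An H3K27ac summit lay in the window of 8, 7 and 8 members in MEF, 7 in each CAF list and 9 and 8 in wound fibroblasts, against 52.4% to 64.3% of all genes. Regions over 4 kb, the length used for broad regions, were found at 3, 2 and 2 members in MEF WT, KI and SG, 4 in each CAF list and 2 and 3 in wound WT and SG. Of all genes 1.49% (MEF KI) to 15.2% (CAF WT) had a region this wide, so CAF lists held many broad regions in general. When a region within 1 kb of a TSS was also counted, members with a region in MEF KI went from 5 to 9. The share of all genes was not counted this way.

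At the Runx genes the H3K4me3 regions lay mainly at the inner promoters, and transcripts were not measured here. For Runx1 the wide region lay over the 2 proximal starts, 129 and 130 kb downstream of the first TSS, in all 7 lists. The distal start of Runx1, from which the longer Runx1 protein is made, carried a region in CAF only (2910 bp in WT, 1851 bp in SG). For Runx2 the wide region lay over the starts 78.1 and 80.1 kb downstream of the first TSS in all 7 lists. The distal Runx2 promoter, the osteoblast form in background knowledge, carried a region of 2572 bp in MEF KI and of 2388 and 3462 bp in CAF WT and SG. MEF KI thus had a distal Runx2 region although it was the smallest H3K4me3 list. The Runx3 region also lay at an inner promoter, 31.8 kb downstream of the first, which had none. Sox5 was the opposite case, since its region lay at the first of its annotated starts and not at the inner ones. CAF lists had further H3K4me3 regions away from the TSSs of protein-coding genes, 15 (WT) and 12 (SG) in the Runx2 window against 0 or 1 in the other lists.

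**Figure D2:**
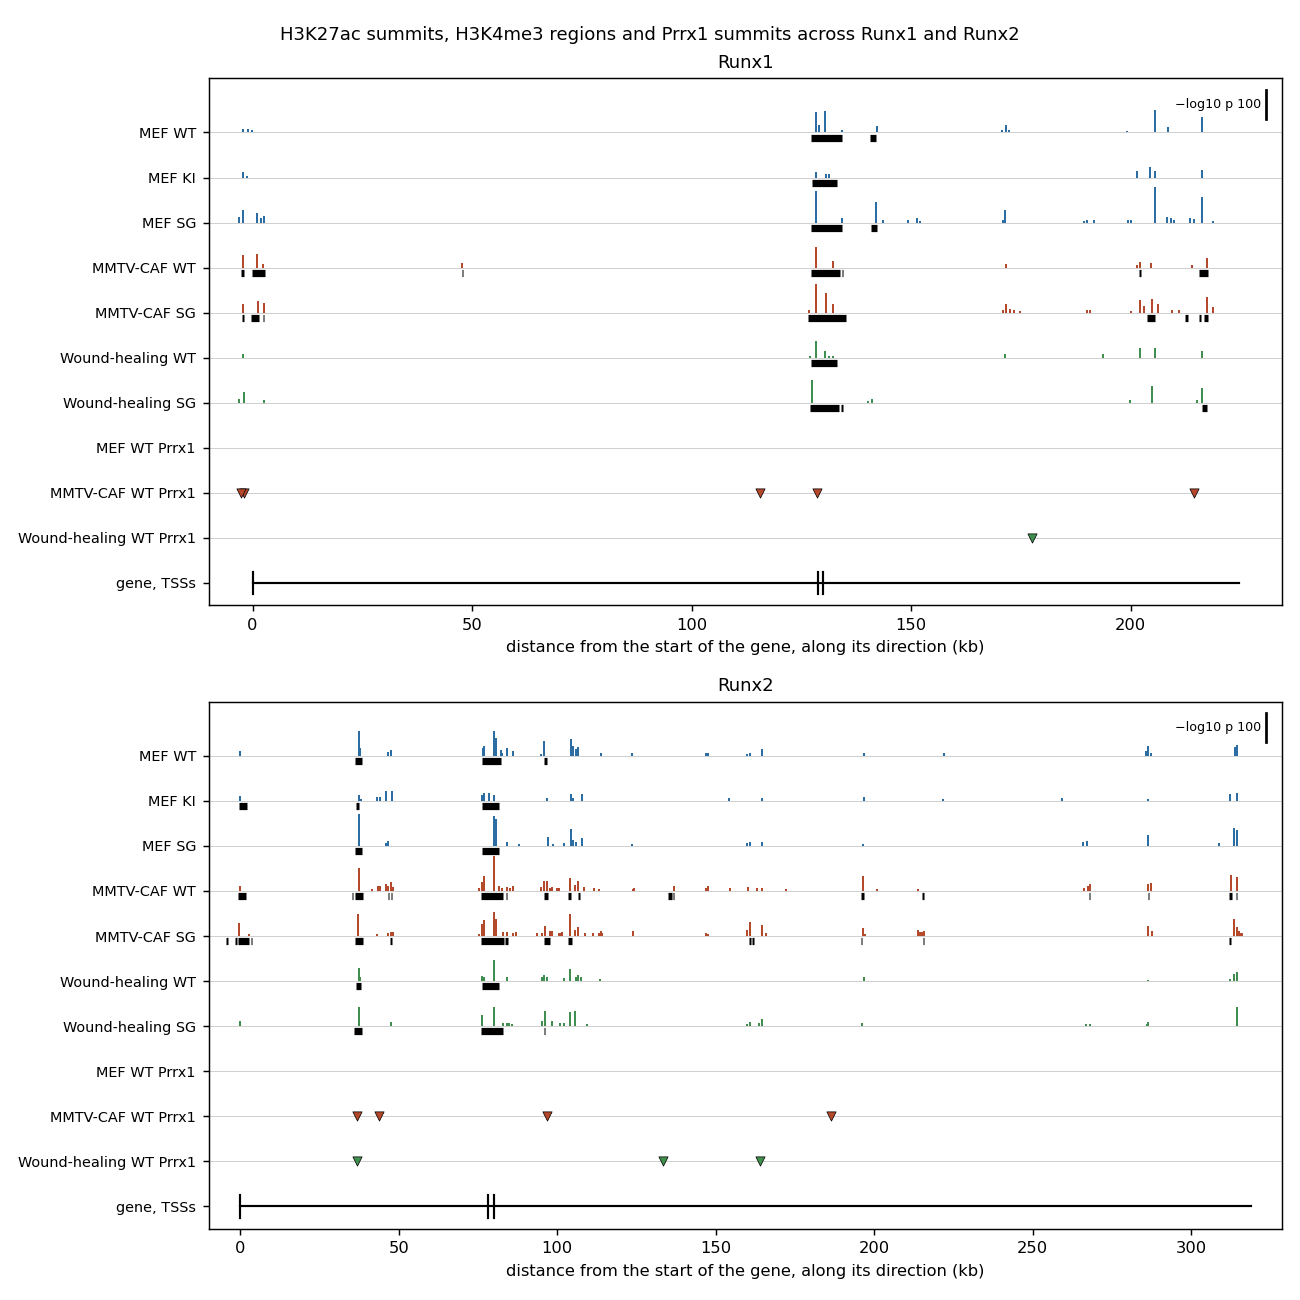
Runx1 and Runx2 from their first TSS, in kb along the gene. Coloured bars are H3K27ac summits (height, −log10 p, with a scale bar of 100), black blocks H3K4me3 regions, triangles Prrx1 summits in WT cells, and vertical ticks on the gene line annotated TSSs. The wide H3K4me3 block sat over the proximal starts in all 7 lists, and Prrx1 summits lay in the CAF and wound rows only.

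H3K27ac was read as the number of summits in a window and their summed −log10 p, the score given by the authors' peak caller. Since long genes hold more summits, levels were compared between genes only per 100 kb, as a percentile among all genes of the list. Per 100 kb, Runx2, Cbfb and Sp7 stood in the upper range of all genes in every list. Runx1 stood above the middle of all genes, Sox5 below it, and Sox6, Msx2 and Runx3 at or near 0 in several lists. Against genes with a summit only, Runx1 was below the median in CAF WT (128 against 197), wound WT (96.0 against 112) and wound SG (118 against 156).

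Runx2 held in MEF 33 (WT), 23 (KI) and 25 (SG) summits, in CAF 51 (WT) and 52 (SG) and among wound lists 20 (WT) and 27 (SG), with summed scores of 875, 411, 780, 1154, 1218, 412 and 637. The percentile per 100 kb went from 69.8 (MEF SG) to 89.3 (MEF KI). CAF lists held the most Runx2 summits, and the KI list ranked Runx2 highest although its summed score was the lowest. Runx1 held 15, 9, 27, 12, 23, 11 and 10 summits with summed scores of 439, 179, 755, 314, 640, 235 and 288, at the 59.1st to 79.7th percentile. Runx3 held 1 summit in MEF WT, MEF KI and wound WT (scores of 11.1, 11.5 and 10.8), 5 in MEF SG (summed score 96.5), and 0 in CAF and in wound SG.

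Cbfb held 9, 5, 6, 5, 8, 3 and 7 summits with summed scores of 246, 53.7, 233, 153, 341, 94.4 and 202, at the 72.5th (CAF WT) to 89.1st percentile per 100 kb. Of these sums 70.5, 24.7, 66.5, 36.8, 89.8, 23.2 and 48.9 lay within 1 kb of the start of the neighbour D230025D16Rik, which also had an H3K4me3 region in all 7 lists (2087 to 3596 bp). Sox9 held 0 to 3 summits, with summed scores of 36.4 in MEF WT, 0 in KI, 74.6 in MEF SG, 102 and 97.6 in CAF and 17.2 and 19.1 in wound fibroblasts. Sox5 held 5 summits in each MEF list (75.9, 51.4 and 88.6), 6 in CAF WT (73.3), 49 in CAF SG (900), 2 in wound WT (25.8) and 15 in wound SG (200). At Sox5 the CAF SG list had the highest sum, while per 100 kb its percentile (48.8) was close to that of MEF KI (48.5). Sox6 held 2 summits in MEF WT (18.7), 8 in MEF KI, the strongest of 23.5, summing to 101.4, and 0 in the other 5 lists.

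All Sp7 summits lay outside its body. The window held 1 to 4 of them (summed scores of 24.0 to 133), and the site present in all 7 lists, with scores of 62.6, 17.6, 97.0, 100, 86.3, 36.8 and 68.6, lay at the start of Aaas, 15.4 kb from the nearest Sp7 TSS. A second strong summit lay just past the window, 10.3 kb upstream of Sp7 in all 7 lists, with scores of 54.8, 16.6, 73.8, 105, 96.3, 23.3 and 40.2. H3K4me3 regions of 703 to 2251 bp lay at the same place in all 7 lists, over no TSS of a protein-coding gene. Starts of non-coding genes were not read. Msx1 held no summit in MEF WT and KI and 1 in the other 5 lists, with scores of 9.81 in MEF SG, 20.4 and 71.2 in CAF (WT, SG) and 16.3 and 23.3 in wound WT and SG. Msx2 held summits in wound fibroblasts alone, 2 in WT (23.5) and 3 in SG (42.8).

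**Figure D3:**
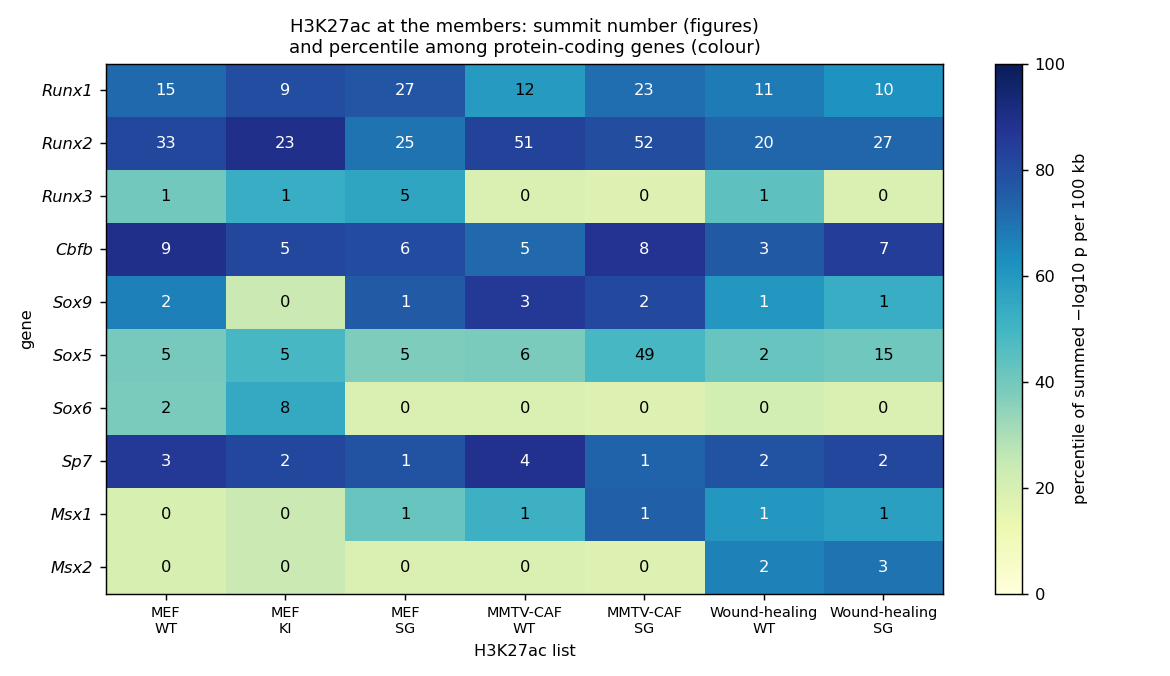
H3K27ac at the 10 genes (rows) in the 7 lists (columns). The printed figure is the number of summits in the gene window and the colour the percentile, among all protein-coding genes of the list, of the summed −log10 p per 100 kb. The Runx2, Cbfb and Sp7 rows are dark throughout, and the Msx2 row is dark in the wound columns only.

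When summits of the 7 lists within 500 bp of each other were joined, the windows held 206 H3K27ac sites, of which 10 were in all 7 lists, 96 in 2 to 6 lists and 100 in 1 list. Runx2 had 69 sites and 7 of the 10 shared ones. These 7 were the proximal promoter, the Supt3h start 37.3 kb into the gene, and 5 intronic sites, at 104, 105, 197, 286 and 315 kb from the first TSS. Runx1 had 50 sites but 1 in all lists, 2.07 kb upstream of the distal TSS, since its proximal site was in 6 lists, and in wound SG the nearest summit lay over 500 bp from it. Sox5 had 49 sites with 1 in all lists, in an intron 707 kb from the first TSS. Of its 34 sites in a single list, 31 were in CAF SG. Sp7 had the last of the 10, at Aaas. Of the 100 sites in a single list, 46 were in CAF SG, the largest list, and 1 in wound WT. Without MEF KI, the smallest list, 13 sites were in every list (an alternative chosen after seeing the data).

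Neighbouring summits were joined into clusters, and the strongest clusters by summed score were called super-enhancers. Runx2 overlapped one in all 7 lists, at ranks 32, 284, 229, 93, 130, 140 and 112 of 13518 to 19061 clusters, with spans of 10.4 to 48.9 kb. In 6 lists the cluster lay over the proximal promoter, and in MEF KI over the Supt3h start. Runx1 overlapped one in MEF WT, KI and SG (ranks 632, 388 and 342) and in CAF SG (1039), and Cbfb in MEF WT, CAF SG and wound SG (954, 1111 and 1233). No other member overlapped a super-enhancer in any list, and 4.07% to 11.9% of all genes did.

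Prrx1 itself was found at 5 of the 10 genes, all of them in wound fibroblasts and some of them in each other type. In MEF, 2 members held a summit (Cbfb 1, Sox5 2) against 7.05% of all genes. In CAF, 3 members did (Runx1 5, Runx2 4, Sp7 2) against 22.1%. In wound fibroblasts, 5 did (Runx1 1, Runx2 3, Cbfb 3, Sox5 1, Sp7 1) against 16.8%. Runx3, Sox9, Sox6, Msx1 and Msx2 held none in any type. Because long windows catch more summits, the rates per 100 kb are also given. Over all gene windows there were 0.134 (MEF), 0.515 (CAF) and 0.361 (wound) Prrx1 summits per 100 kb, against 1.49 for Cbfb and 0.205 for Sox5 in MEF and 2.04 for Runx1, 1.18 for Runx2 and 6.61 for Sp7 in CAF. In wound fibroblasts the rates were 0.409 for Runx1, 0.885 for Runx2, 4.46 for Cbfb and 3.31 for Sp7, and 0.103 for Sox5, below that of all windows.

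The strongest Runx1 summit had a −log10 p of 14.9, rank 624 of the CAF list, at chr16:92828957. It lay 2.65 kb upstream of the distal promoter, with TAATTA in its window, and had no H3K27ac summit within 500 bp in CAF WT, while MEF SG and wound SG had one. A weaker CAF summit nearby (4.20, chr16:92828209) lay at the Runx1 site with H3K27ac in all 7 lists, and another (4.58, chr16:92697769) 196 bp from a proximal TSS. At Runx2 the summits with the highest scores were in CAF, 10.6 in an intron at chr17:44855133 and 9.52 at the Supt3h start. The Supt3h start was the only Runx2 site with a Prrx1 summit in more than 1 type (8.31 in wound fibroblasts), and it carried H3K27ac and H3K4me3 in all 7 lists.

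At Sox5 the MEF summits scored 15.1 (chr6:144059898) and 14.4 (chr6:144023527). The first lay in the repeat of TAATTA and had no H3K27ac or H3K4me3 in any list, and the second lay at the Sox5 site with H3K27ac in all 7 lists and held no TAATTA. The Sp7 summits lay at Aaas, 232 bp from its TSS in CAF (17.6, rank 431) and 229 bp from it in wound fibroblasts (9.71). Just outside the window, 11.1 kb upstream of Sp7, CAF also had a summit of 32.1. Cbfb had 1 MEF summit, intronic and without H3K27ac (8.51), and 3 in wound fibroblasts (4.496 to 5.387), all within 2335 bp of its TSS. Scores under 5 lie below the cutoff the study states.

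Prrx1 deletion was compared with WT by the log2 ratio of summed H3K27ac scores, each with 5 added, and a ratio past 2-fold was called higher or lower. Over all genes with a summit, MEF KI had a median log2 ratio of −1.62, whereas it was 0.48 for MEF SG, 0.25 in CAF SG and 0.59 in wound SG. Calls past 2-fold are therefore also given relative to that median. Among the members, Sox5 had the highest ratio in CAF SG and wound SG, Sox6 in MEF KI and Runx3 in MEF SG, where Sox6 had the lowest.

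In MEF KI, 5 of 8 members with a summit were lower (Runx1, Runx2, Cbfb, Sox9, Sp7) and 1 higher (Sox6), against 78.9% and 2.49% of all genes. Sox9 had the lowest ratio, −3.05, which is 1.43 below the median, with 2 summits in WT and 0 in KI. Runx1 at −1.27 and Runx2 at −1.08 were lower as deposited but 0.35 and 0.53 above the all-gene median, so their direction turned when the ratios were centred on it. Cbfb (−2.09) and Sp7 (−1.80) lay 0.48 and 0.19 below the median. Sox6 was the exception at 2.16, which is 3.78 above the median and at the 99.2nd percentile of all genes, with 8 summits against 2. Runx3 (0.03) and Sox5 (−0.52) passed neither limit, but lay 1.64 and 1.099 above the median, past 2-fold once centred. Centred, Sox9 was thus lower and Sox6, Runx3 and Sox5 higher, against 13.9% and 11.2% of all genes. Msx1 and Msx2 had no summit in either list.

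In MEF SG, 1 of 9 members was lower (Sox6) and 2 higher (Runx3, Msx1), against 3.54% and 16.7% of all genes. Runx3 had a log2 ratio of 2.65, from 1 summit in WT to 5 in SG, with the largest score of 50.6 at its inner promoter. Sox6 had −2.25, from 2 summits to 0. Msx1 had 1.57 on a single new summit of 9.81. Relative to the median Runx3 was at 2.17, Sox6 at −2.73 and Msx1 at 1.09, all still past 2-fold. With a pseudocount of 20 in place of 5, Sox6 (−0.95) and Msx1 (0.58) no longer passed, and Runx3 (1.90) did. Runx1 (0.78), Runx2 (−0.17), Cbfb (−0.08), Sox9 (0.94), Sox5 (0.21) and Sp7 (0.01) passed neither limit.

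In CAF SG, 0 of 7 members were lower and 4 higher (Runx1, Cbfb, Sox5, Msx1), against 4.8% and 15.2% of all genes. Sox5 had a log2 ratio of 3.53, which is 3.28 above the median and at the 98.7th percentile. Per 100 kb its level stood at the 38.4th percentile of genes in WT and the 48.8th in SG. All 6 WT summits of Sox5 were kept, and 43 of the 49 in SG were new. Many of the new ones lay between the first TSS, where a summit of 49.5 lay, and 184 kb into the gene, and others from 864 to 938 kb, near its far end. Msx1 had 1.58 and Cbfb 1.13. In the Cbfb body alone the ratio was 0.96. That window leaves out the neighbour's start and also the summit just upstream of the Cbfb TSS (19.8 in WT, 58.2 in SG). Runx1 had 1.02, just past the limit, with 14 new summits and 9 of 12 kept. Relative to the median Runx1 was at 0.76 and Cbfb at 0.88, no longer past 2-fold, while Msx1 was at 1.33. Sox9 (−0.06) and Sp7 (−0.60) passed neither limit, and Runx3, Sox6 and Msx2 had no summit in either list. Runx2 was at 0.08, although 17 of its 51 summits were not kept and 19 were new.

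In wound SG, 1 of 9 members was lower (Runx3) and 2 higher (Cbfb, Sox5), against 1.66% and 24.8% of all genes. Sox5 had a ratio of 2.73, which is 2.14 above the median and at the 97.7th percentile of ratios, but per 100 kb its level stood at the 41.9th percentile of genes in WT and the 40.3rd in SG. It held 15 summits against 2, with 14 new. The 15 summits formed 14 sites, of which 12 were also in CAF SG and the other 2 in this list alone. Some of the 12 were in further lists too, WT ones included, and 1 of them was the site in all 7 lists. Runx3 had −1.66, on the loss of a single summit of 10.8, and −2.25 relative to the median. Cbfb had 1.06, which is 0.47 above the median and no longer past 2-fold. Runx1 (0.29), Runx2 (0.62), Sox9 (0.12), Sp7 (0.75), Msx1 (0.41) and Msx2 (0.75) passed neither limit.

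**Figure D4:**
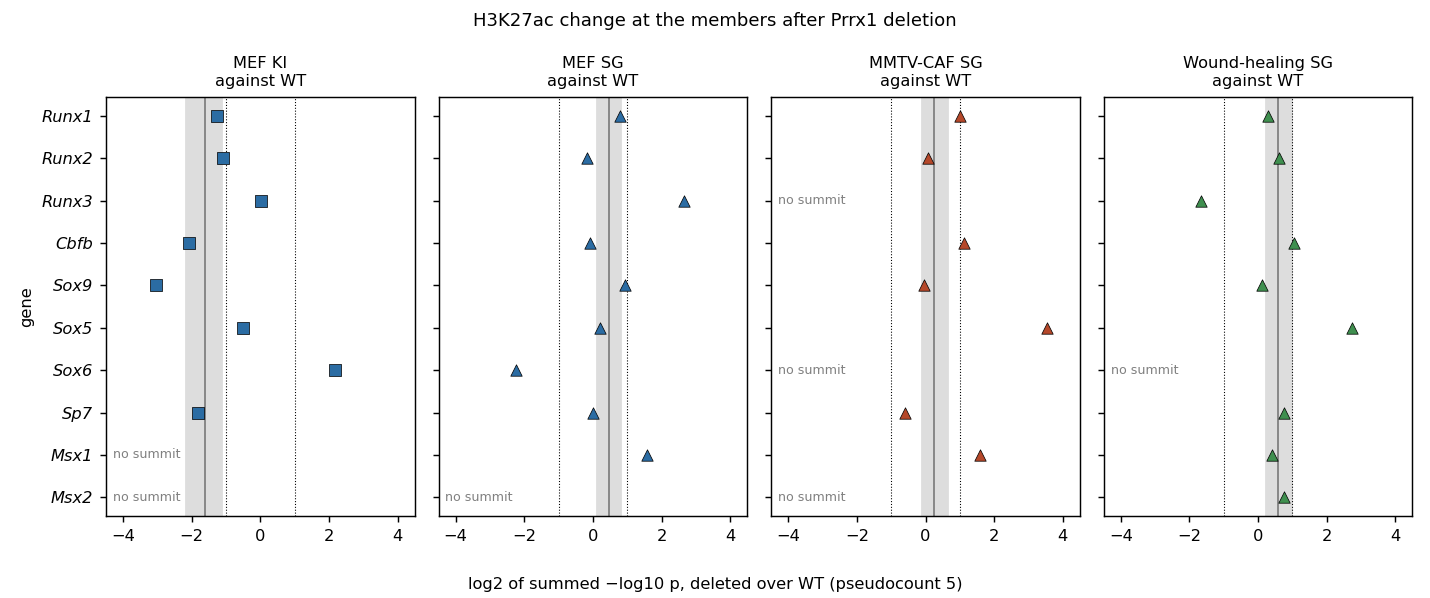
log2 ratio of summed H3K27ac −log10 p (5 added), deleted over WT, for each gene in the 4 comparisons. The grey line and band are the median and the range between the quartiles of all genes, dotted lines the 2-fold limits, and genes without a summit in either list carry no point. Sox5 lies far to the right of the band in CAF SG and wound SG, and Sox6 on opposite sides in MEF KI and MEF SG.

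H3K4me3 width passed its limit at Sox5 in 3 comparisons and at Runx3 in 1, and at no other member. A region was called narrower or wider past 1.5-fold. In MEF KI, 1 of 5 members with a region in both lists was narrower (Sox5, log2 −1.32) and 0 wider, against 25.1% and 0.524% of all genes. In MEF SG, 1 of 6 was narrower (Sox5, −0.71) and 0 wider, against 5.03% and 0.608%. In CAF SG, 0 of 6 were narrower and 1 wider (Sox5, 2.15-fold), against 5.87% and 4.96%. In wound SG, 1 of 7 was narrower (Runx3, −1.45) and 0 wider, against 1.72% and 11.6%. The fold enrichment of the Sox5 region did not follow its width in MEF SG, where it was higher than in WT (log2 0.55). The Cbfb and Msx1 regions of MEF WT were not over a TSS in KI, nor the Msx1 region in MEF SG, where the regions began 151, 94 and 35 bp past it. Over an annotated TSS, Msx2 had a region in WT only in CAF and in wound fibroblasts, and Runx3 in CAF SG only. A TSS region in WT alone was thus found at 2, 1, 1 and 1 members in MEF KI, MEF SG, CAF SG and wound SG, against 22.6%, 4.02%, 2.68% and 2.42% of all genes. The RefSeq start of Msx2 lies 294 bp past the annotated TSS and was under a region in 4 lists, wound SG included. By that start Msx2 had a region in both wound lists.

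The 3 fibroblast types were compared in WT cells by the percentile within each list, and a difference over 20 points was called. Runx1, Runx2, Cbfb, Sox5, Sox6 and Sp7 were called in no pair for either mark. For H3K27ac, CAF against MEF called 2 of 9 members, Runx3 (−21.0 points) and Msx1 (32.3 higher), against 12.6% of all genes. Wound-healing against MEF called 2 of 10, Msx1 (41.2 higher) and Msx2 (47.0 higher), against 10.5%. Wound-healing against CAF called 3 of 9, Runx3 (25.1 higher), Sox9 (−25.6) and Msx2 (47.2 higher), against 12.2%. Apart from Sox9, each of these H3K27ac calls set 1 or 2 summits against none. The sums were 11.1 (MEF) and 10.8 (wound) for Runx3, 20.4 (CAF) and 16.3 (wound) for Msx1, and 23.5 (wound) for Msx2. Genes without a summit all stood together at the 19.0th to 20.9th percentile. For H3K4me3 width, CAF against MEF called Runx3 (−52.6) and Msx2 (32.5 higher), 2 of 8 against 13.5%. Wound-healing against MEF called Msx1 (21.6 higher) and Msx2 (56.2 higher), 2 of 8 against 10.2%, and wound against CAF called Runx3 (47.2 higher) and Msx2 (23.7 higher), 2 of 8 against 15.5%. Strain and fibroblast type cannot be told apart for CAF.

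Some of these genes lie beside long stretches without other protein-coding genes, in which distant enhancers of limb and skull genes are known. Between its neighbours Gm11678 and Slc39a11 (813 kb), Sox9 had in MEF 16 (WT), 6 (KI) and 25 (SG) H3K27ac summits, 22 and 25 in CAF and 7 and 13 in wound fibroblasts, while its window held 0 to 3. A Prrx1 summit lay in this stretch once in each type. Its distance to the nearest Sox9 TSS was 312 kb in MEF, and 230 kb in CAF (score 10.8) and wound fibroblasts (6.32). The last 2 lay at the same place. Between Etnk1 and Bcat1 (1785 kb), the Sox5 stretch held 11, 10 and 11 summits in MEF, 13 and 73 in CAF and 5 and 23 in wound fibroblasts. Between Syf2 and Clic4 (276 kb), the Runx3 stretch held 4, 7 and 20 in MEF, 8 and 18 in CAF and 1 and 3 in wound fibroblasts, so CAF had summits near Runx3 but none in its window. A Prrx1 summit of 31.4 lay 25.4 kb from the first Runx3 TSS in MEF, and 1 of 11.5 lay 25.5 kb from it in wound fibroblasts.

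The members with an H3K27ac summit in all 7 lists were set beside all other genes, and the likeness measured as the mean absolute difference of percentiles over the 14 histone lists. Runx1 was most like Igf1r, Zfhx4 and Mbnl1 (2.15 to 2.95 points) and Runx2 most like Ppat, Phldb2 and Sp3 (2.21 to 2.57). The nearest genes were Pcf11, Npc2 and Ubap2l for Cbfb (2.32 to 3.83), Apoc2, Calhm1 and Abhd16b for Sp7 (1.42 to 1.76), and Nbas, Vav3 and Slc4a4 for Sox5 (5.17 to 5.56). Sox5 had the least close neighbours of the 5.

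Other skeletal genes were read from lists of osteoblast genes, cartilage genes and Runx partners. In each list 41.5% to 55.3% of all genes had a TSS region and 52.4% to 64.3% an H3K27ac summit. Of 18 osteoblast genes, 2 (MEF KI) to 7 (both wound lists) had a TSS region and 5 to 9 an H3K27ac summit. Twist1, which holds Runx2 back, had H3K4me3 of 5358 to 7944 bp in 5 lists and none over its TSS in MEF KI and wound WT. Zfp521, a zinc-finger antagonist of Runx2, had 22 summits in CAF WT and 0 in SG, while a TSS region of 4204 bp remained. Zfp521 also had fewer summits in every other deleted list (3 and 9 against 16 in MEF, 2 against 5 in wound fibroblasts). Phex, an osteoblast peptidase, had 10, 1, 8, 7, 17, 1 and 2 summits, and Atf4, a partner of Runx2, 3 to 5 in each list. In H3K27ac 7 of 7 tested osteoblast genes were lower in MEF KI and 0 higher, 0 and 1 of 7 in MEF SG, 1 and 5 of 10 in CAF SG, and 1 and 3 of 7 in wound SG.

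Of 19 cartilage genes, 3 to 6 had a TSS region and 5 to 7 an H3K27ac summit. Col9a3 and Col11a2, cartilage collagen genes, had 1 to 3 summits each in every list and no TSS region, and Matn3, a cartilage matrix gene, 2 to 4. Sox8, a relative of Sox9, had 0 in MEF KI and 1 or 2 in the other lists. In MEF KI 3 of 6 tested cartilage genes were lower and 0 higher, in MEF SG 1 and 2 of 7, in CAF SG 1 and 3 of 8, and in wound SG 0 and 3 of 7. All 8 co-repressors and partners of Runx had a TSS region in 6 lists and 7 in MEF KI. Tle3, a Groucho co-repressor, had a region of 2419 to 4598 bp in MEF, 9076 and 9571 bp in CAF and 6970 and 10039 bp in wound WT and SG, and Tle2 one of 660 to 1832 bp over the 7 lists. Cbfa2t2 and Runx1t1, of the family fused to RUNX1 in leukaemia, had 4 to 13 and 2 to 12 summits. Of these 8 genes, 6 and 1 of 7 were lower and higher in MEF KI, 0 and 1 of 7 in MEF SG, 1 and 1 of 8 in CAF SG, and 1 and 1 of 6 in wound SG. Prrx1 summits lay at 2, 3 and 7 osteoblast, 1, 4 and 1 cartilage and 3, 6 and 4 partner genes in MEF, CAF and wound fibroblasts. The shares of all genes given above for each comparison are the background of these counts as well.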

How the data were processed

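Chromatin immunoprecipitation with sequencing had been run on 3 kinds of cultured fibroblasts, with antibodies from Abcam (H3K27ac, H3K4me3) and LS-bio (Prrx1). Per the labels, Trimmomatic, Bowtie, MACS2 and deepTools were used on mm9, and the labels give no versions. The authors deposited H3K27ac and Prrx1 as single-base summits with a −log10 p-value, and H3K4me3 as broad regions with a fold ratio over input, a −log10 p-value and a −log10 q-value. The lowest −log10 p was 5 in the H3K27ac lists and 3 in the Prrx1 lists. Whether the duplicate Prrx1 immunoprecipitations were pooled is not given in the sources used here. Library totals were not used here, so the depth is unknown, and a longer or stronger list may come from a deeper library.

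Groups were taken from the labels. Genes were the protein-coding ones of the mm9 annotation (GENCODE, NCBIM37), and non-coding genes were not read. Windows were the body with 10 kb each side. Scores were summed per window, 5 was added before log2 ratios, and limits were 2-fold (H3K27ac), 1.5-fold (width) and 20 percentile points (types). Summits within 12.5 kb were joined into clusters. The members and lists were chosen with earlier results of these data known. Genes of the context lists were named as the first 4 by H3K27ac percentile in WT lists among listed genes, as fixed in the design. Alternatives were centring on the all-gene median, lists of equal size, numbers of summits, other windows, a pseudocount of 20 and stricter scores. Scripts were tested on simulated data and used Python 3.11.15, numpy 2.4.6, pandas 2.3.3, pysam 0.24.0 and matplotlib 3.10.9. RefSeq promoters were of GRCm38.p6 and were placed on mm9 by exact match only.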

Additional observations from a re-analysis of the deposited data

Results flagged for a closer look

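At 4 members the H3K27ac ratio of deleted over WT cells went past 2-fold in opposite directions in 2 or more comparisons. With 1 library a group the difference was not tested. The share of all genes with such opposite calls was not counted, so the number of members is a description only. Of all genes, 78.9% were lower in MEF KI, and 16.7%, 15.2% and 24.8% higher in MEF SG, CAF SG and wound SG. For Runx1 the log2 ratio was −1.27 in MEF KI and 1.02 in CAF SG. For Cbfb it was −2.09 in MEF KI, 1.13 in CAF SG and 1.06 in wound SG. For Runx3 it was 2.65 in MEF SG and −1.66 in wound SG, where a single summit was lost. For Sox6 it was 2.16 in MEF KI and −2.25 in MEF SG, which share their WT list of 2 Sox6 summits. The all-gene median in MEF KI was −1.62, and relative to it Runx1 in MEF KI was at 0.35 and Cbfb at −0.48.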

How the results depend on the processing

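Of 102 counts recomputed under alternatives, 74 stayed within 1.5 times and 28 moved. Centring on the all-gene median gave 1 lower and 3 higher members in MEF KI, and 2 and 1 higher in CAF SG and wound SG, against 13.9% lower and 11.2%, 10.9% and 10.1% higher of all genes. It also turned Runx1 and Runx2 in MEF KI to 0.35 and 0.53. Counting summits gave 1 lower in MEF KI, 2 lower in MEF SG, and 1 lower and 1 higher in CAF SG. By this measure 28.9%, 5.81%, 5.89% and 12.9% of all genes passed, in the same order. Lists of equal size gave 2 higher in MEF KI, 0 lower in MEF SG and 1 higher in wound SG. Of all genes 4.01%, 3.06% and 19.4% were so called. A pseudocount of 20 gave 0 lower and 1 higher in both MEF SG and wound SG, where Sox6 and Msx1, and Runx3 and Cbfb, were no longer called. The all-gene shares were then 1.53% lower and 7.35% higher in MEF SG, and 0.437% and 11.5% in wound SG. Summits with −log10 p of at least 10 gave 1 higher in MEF SG, and windows of 50 kb 1 lower in CAF SG, against 17.6% and 4.11% of all genes. Fold enrichment in place of width gave 4 lower in MEF KI, where the all-gene median was −0.60 (log2), itself past the limit, 0 in MEF SG and wound SG, 2 higher in CAF SG, and turned Sox5 in MEF SG to 0.55. Members with a Prrx1 summit became 4 in MEF within 50 kb, and with −log10 p of at least 10 were 1 in MEF and 0 in wound fibroblasts. At 30 percentile points H3K27ac called 1 member for CAF against MEF and 1 for wound against CAF, and width 1 for wound against MEF and 1 against CAF. All-gene shares were not counted for fold enrichment, the other Prrx1 settings or 30 points, so those counts have no background. The cause of these moves was not tested. Leaving out a replicate was not possible with 1 library a group. No paired analysis was possible because no group had a second library. The Sox5 calls in CAF SG and wound SG are read at unknown depth.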
